A study of Mus musculus with 16 samples.

Results

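The 9 genes described here encode the receptors for the constant part of IgG in the mouse and the proteins that carry their signal into the cell. They were chosen by symbol, as the 4 Fc gamma receptors Fcgr1, Fcgr3, Fcgr4 and Fcgr2b, the adaptor Fcer1g, the kinases Lyn and Syk, the phospholipase Plcg2 and the phosphatase Inpp5d, and all 9 were among the 24411 gene symbols measured. RNA of the spinal cord was sequenced from 16 female C57BL/6J mice. Of these, 14 received a moderate spinal cord injury (SCI), a lateral compression to 0.25 mm at T8-9 under ketamine and xylazine at 12 wk of age. From 2 wk after injury, 7 of the injured mice were given atorvastatin daily at 10 mg/kg for 4 wk (SCI + Atorvastatin). The other 7 were given only its vehicle of DMSO, PEG 400, Tween 80 and saline (SCI + Vehicle), which the atorvastatin mice received too. The Uninjured Control group held 2 mice without injury or treatment, given as 12 wk old in the labels and as somewhat older in the study's methods. Cords were taken 6 wk after injury according to the labels and slightly later according to the methods, after perfusion with cold saline, and a 5 mm piece around the injury or the matching level was used. The labels place the injury at T8-9 but the section at T9-10. Each column of data is 1 mouse. The comparison with the Uninjured Control group holds injury, laminectomy, anaesthesia, antibiotic, pain relief, injections and age together.

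Fc gamma receptors let myeloid cells bind antibody that has coated a target. The activating receptors Fcgr1, Fcgr3 and Fcgr4 have no signalling motif of their own in the mouse and pair with Fcer1g, whose tail holds an immunoreceptor tyrosine-based activation motif (ITAM). When receptors are clustered, Src-family kinases such as Lyn phosphorylate the ITAM, Syk docks on it, and Plcg2 is switched on, which leads to calcium release, phagocytosis and cytokine output. Fcgr2b carries an inhibitory motif (ITIM) and recruits Inpp5d, the inositol phosphatase SHIP-1, which opposes that signal. In the central nervous system these genes are known mostly from microglia, and after injury also from macrophages that enter from blood.

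The known signalling motifs of the adaptor and of the inhibitory receptor are shown first, as coding bases of the GENCODE transcripts (GRCm38), read 5′ to 3′ with the tyrosine codons in capitals. The ITAM of Fcer1g covers codons 65 to 79 of 86 and is split between exons 4 and 5 of 5, at chr1:171229889-171230072 on the minus strand. The ITIM of Fcgr2b covers codons 317 to 322 of 340 in exon 8 of 8, at chr1:170961071-170961088 on the minus strand.
Fcer1g ITAM: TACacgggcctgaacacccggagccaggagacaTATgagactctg
Fcgr2b ITIM: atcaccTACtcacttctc
An ITAM-type pattern, a tyrosine codon with leucine or isoleucine 3 codons on and the same again after a gap of 6 to 8 codons, was found in 1 of the 9 genes, Fcer1g, and in 2.85% of 21877 coding genes. The looser ITIM-type pattern was found in 6 of the 9 genes (Fcgr1, Fcgr4, Fcgr2b, Fcer1g, Lyn and Plcg2) and in 48.5% of coding genes, so the pattern alone does not set Fcgr2b apart.

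Fcgr2b, Fcgr4, Fcgr3 and Fcer1g lie within 276 kb of each other on chromosome 1 (chr1:170958617-171234365), Inpp5d lies farther off on the same chromosome (chr1:87620312-87720507), and Fcgr1 lies on chromosome 3 (chr3:96282909-96293969). Lyn is at chr4:3678115-3813122, Syk at chr13:52583173-52648792 and Plcg2 at chr8:117498291-117635142. The 100 bases before the RefSeq start (GRCm38.p6) of each receptor gene are shown because the 4 receptors are compared throughout. Fcgr3 has 2 listed starts, and the first is shown. Capitals mark TTCCTC, the reverse complement of GAGGAA, a box known as a binding sequence of the myeloid factor PU.1.
Fcgr1 (chr3:96293970-96294069, minus strand): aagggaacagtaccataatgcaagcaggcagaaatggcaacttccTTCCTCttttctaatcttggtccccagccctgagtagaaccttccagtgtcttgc
Fcgr3 (chr1:171059404-171059503, minus strand): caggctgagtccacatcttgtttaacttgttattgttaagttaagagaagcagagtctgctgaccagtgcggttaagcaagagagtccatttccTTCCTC
Fcgr4 (chr1:171018826-171018925, plus strand): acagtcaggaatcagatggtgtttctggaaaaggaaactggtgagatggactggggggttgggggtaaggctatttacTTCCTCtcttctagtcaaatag
Fcgr2b (chr1:170976072-170976171, minus strand): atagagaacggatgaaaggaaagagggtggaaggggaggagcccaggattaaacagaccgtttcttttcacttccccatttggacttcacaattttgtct
The box starts at position -55 in Fcgr1, -6 in Fcgr3 and -22 in Fcgr4, and these letters are not in the window of Fcgr2b. Over windows of 300 bases, from 250 before to 50 after the start, the box on either strand was found in 28.3% of 32851 promoters. Counted by gene, it was in any window of 31.3% of 27025 genes and of 5 of the 8 genes with an entry, namely the 3 activating receptors, Inpp5d and 1 of 2 starts of Syk. Fcer1g and Plcg2 had no match in their windows.

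The libraries held 14823292 to 25579826 counts on genes, and 2 features of the Uninjured Control libraries bear on every comparison with them. First, they held fewer genes with a count (12732 in replicate 1 and 12356 in replicate 2, against 16399 to 19338 in SCI mice). Of the 5319 genes that averaged between 500 and 2000 counts over SCI mice, 1.62% and 2.56% had no count in these controls, against at most 0.038% in any SCI mouse. Second, they held liver transcripts. The summed level of 9 hepatocyte genes was 6677 and 1359 TPM (a level scaled by gene length and to a fixed sum per library), against at most 12.6 TPM in SCI mice. In both SCI groups 9 of 9 were lower. Kupffer cell genes, the markers of liver macrophages, summed to 11.3 and 0 TPM in the controls. They summed to 1.21 to 52.3 TPM with vehicle and 19.6 to 95.3 TPM with atorvastatin. Of the 3 tested, 1 was called higher in each comparison and 1 lower with atorvastatin. The gene called higher was Cd5l, which had 0 counts in both controls and so had to be higher. Its mean of 18.4 TPM with vehicle and 37.3 TPM with atorvastatin made up most of the sum in SCI mice. Clec4f went the other way, with 329 and 0 counts in the controls against at most 22 in SCI mice. The part of these features in the results was not tested. Levels below are the authors' TPM. Fold changes come from TMM-normalized counts and the quasi-likelihood test of edgeR, with Benjamini-Hochberg adjustment over the 16091 genes whose group mean passed 1 TPM somewhere. Fcgr1, Fcgr4 and Fcgr2b passed that filter only through the SCI groups. A gene was called at a change above 25%, taken on the log2 scale, with an adjusted p below 0.05 against Uninjured Control, and with an unadjusted p below 0.001 between treatments, the limits the study used.

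All 9 genes were higher in both SCI groups than in the Uninjured Control group. In SCI + Vehicle vs. Uninjured Control, 9 of 9 were called as upregulated, where 19.8% of all genes tested were. In SCI + Atorvastatin vs. Uninjured Control it was again 9 of 9, where 24.9% of all genes were. These counts include Fcgr1, Fcgr4 and Fcgr2b, which were tested only through the SCI groups. Fcgr1 and Fcgr4 had 0 counts in both controls and so had to be higher. With a mean TPM above 1 required in every condition, 6 of 6 genes tested were called in both comparisons. Under that filter 1261 and 1774 of all 12559 genes were called as upregulated with vehicle and atorvastatin. Every SCI mouse lay above both control mice for each of the 9 genes in CPM (counts scaled by library size and TMM factor), as held for 24.8% of all genes with SCI + Vehicle and 29.7% with SCI + Atorvastatin. The median log2 fold change of the 9 genes was 3.39 and 3.54 in the respective comparisons. The median of all genes tested was 0.17 and 0.21, a shift that stands behind each value below. The comparisons share their 2 controls, so they are not independent of each other. With limma's voom and a quality weight for each group, 0 of the 9 genes and only 132 and 145 of all genes were called. With voom but no weights, an alternative chosen after seeing the data, 9 of the 9 genes were called in both comparisons. In bulk tissue more cells of a type and more RNA per cell cannot be told apart.

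**Figure D1:**
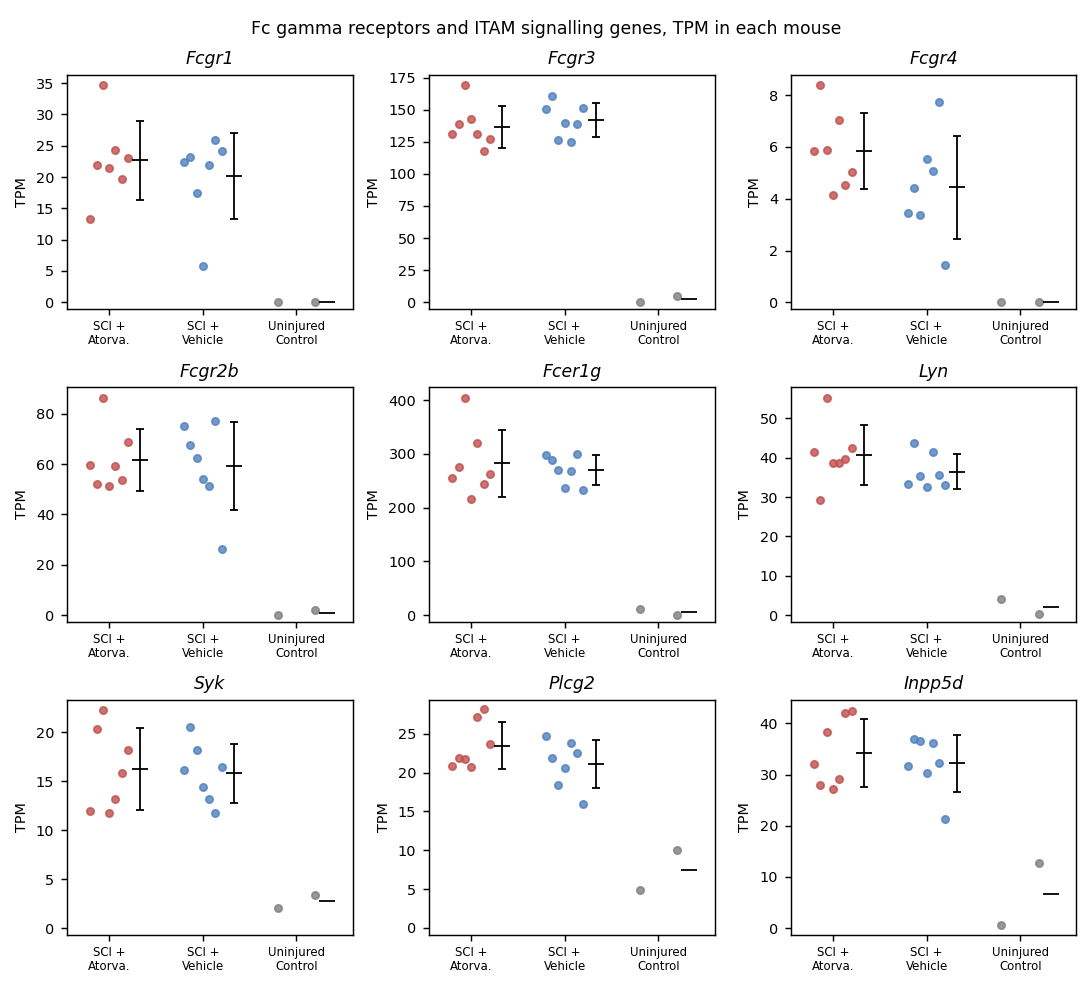
TPM of each of the 9 genes (y axes, linear, each from 0) in every mouse of the 3 groups; points are mice, dashes are group means and bars are 1 SD for the groups of 7. The 14 SCI mice lie above both Uninjured Control mice in every panel, and the SCI groups overlap.

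Fcgr1, the high-affinity IgG receptor, was undetected without injury. Both Uninjured Control libraries had 0 counts, while the SCI + Vehicle mice ranged from 5.72 TPM over a median of 22.5 TPM to 25.96 TPM and the SCI + Atorvastatin mice from 13.4 over 22.0 to 34.6 TPM. The SCI mice were set against 3 counts in each control library, the 95% limit of counting error for a count of 0. On that basis the mean CPM was 144-fold higher in SCI + Vehicle mice and 160-fold higher in SCI + Atorvastatin mice (adjusted p = 9.57e-05 and 2.8e-05 in edgeR). The same 2 controls had 0 and 47 counts of Fcgr3, a gap beyond counting error, so these folds are no lower bounds. Among 3173 genes of like counts in SCI mice, 1.99% also had 0 counts in both controls. The lowest value belonged to SCI + Vehicle replicate 4, which had the smallest library, with 112 counts of Fcgr1.

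Fcgr3, the low-affinity activating receptor of most mouse myeloid cells, was the most abundant of the 4 receptors. It ranged from 125 over 140 to 161 TPM with vehicle and from 118 over 131 to 169 TPM with atorvastatin, against 0 and 4.85 TPM in the controls (0 and 47 counts). The lowest SCI + Vehicle mouse was 24.9-fold above the higher control and the lowest SCI + Atorvastatin mouse 23.4-fold in CPM. On the log2 scale it rose by 5.85 ± 0.852 (SE) with vehicle and by 5.85 ± 0.871 with atorvastatin (adjusted p = 0.000744 and 0.000554). Its size rests on 1 library: without Uninjured Control replicate 1, which had no count, it was 4.89 in both comparisons, and against that replicate alone the fitted values were 13.44 and 13.48, which are no bound. Of the 75-base stretches of its transcripts, 5.42% also occur in Fcgr2b, so reads there could be assigned to either gene.

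Fcgr4, an activating receptor for IgG2 classes, stood lowest. It had 13 to 74 counts in SCI mice and 0 in both controls, which is 1.46 over 4.43 to 7.75 TPM with vehicle and 4.16 over 5.85 to 8.38 TPM with atorvastatin. Its mean CPM was 13.03-fold higher in SCI + Vehicle mice than 3 counts per control library, and 15.98-fold higher in SCI + Atorvastatin mice (adjusted p = 0.00365 and 0.000281 in edgeR). As for Fcgr1, these folds are no lower bounds. At this level a count of 0 in the controls was common: 61.7% of 1401 genes of like counts had 0 in both.

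Fcgr2b, the single inhibitory receptor of the family, rose as well. It ranged from 26.2 over 62.5 to 77.3 TPM with vehicle and from 51.3 over 59.4 to 86.2 TPM with atorvastatin. The controls had 51 and 70 counts, but 0 and 1.98 TPM, so here the counts and the TPM of the files differ for the same libraries. On counts, the log2 fold change was 3.39 ± 0.405 and 3.54 ± 0.308 (adjusted p = 0.000253 and 3.36e-05). On log2(TPM + 1) with limma it was 5.05 and 5.16. Of the 75-base stretches of its transcripts, 5.43% also occur in other genes, among them Cplx2, Gm47409 and Fcgr3. Whether such reads add to the counts of the controls was not tested.

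Fcer1g, the shared ITAM adaptor, had the highest level of the 9 genes. SCI + Vehicle mice ranged from 232 over 271 to 299.7 TPM and SCI + Atorvastatin mice from 216 over 263 to 403 TPM, against 10.7 and 0 TPM in the controls (42 and 0 counts). It rose by 5.51 ± 0.924 on the log2 scale with vehicle and by 5.63 ± 0.948 with atorvastatin (adjusted p = 0.0016 and 0.00112). Without Uninjured Control replicate 2, which had no count, it was 4.49 and 4.60, and against that replicate alone the fitted values were 13.05 and 13.2, which are no bound. A count of 0 in 1 control but not in the other was found for 1.70% of 3175 genes of like counts. In SCI mice there was 1.63 ± 0.179 (SD, n = 7) TPM of Fcer1g for each TPM of the 3 activating receptors together with vehicle, and 1.70 ± 0.226 with atorvastatin.

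Lyn, the Src-family kinase upstream of both ITAM and ITIM, ranged from 32.5 over 35.5 to 43.8 TPM with vehicle and from 29.3 over 39.6 to 55.1 TPM with atorvastatin. The controls had 116 and 177 counts, listed as 4.06 and 0.34 TPM. Control replicate 2 thus had 23.6 CPM for each TPM, against 1.29 to 1.86 in SCI mice, and its TPM is out of step with its count. On counts it rose by 2.92 ± 0.217 on the log2 scale with vehicle and by 3.12 ± 0.235 with atorvastatin (adjusted p = 2.63e-05 and 1.69e-05), and 3.84 and 3.98 on log2(TPM + 1). The transcripts of Lyn share 14.4% of their 75-base stretches with Gm11787 and Gm26857.

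Syk, the kinase that binds the phosphorylated ITAM, had even controls. It ranged from 11.7 over 16.2 to 20.5 TPM with vehicle and from 11.7 over 15.9 to 22.3 TPM with atorvastatin, against 2.08 and 3.35 TPM (130 and 146 counts) in the controls. The rise was 5.04-fold with vehicle and 5.57-fold with atorvastatin, with 95% confidence intervals of 3.37 to 7.54 and 3.37 to 9.23 (adjusted p = 0.000184 and 0.000277 in edgeR). For this gene, leaving out either control or any SCI mouse kept the log2 fold change between 2.29 and 2.55.

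Plcg2, the phospholipase downstream of Syk, rose least. It ranged from 16.01 over 21.9 to 24.7 TPM with vehicle and from 20.7 over 21.9 to 28.2 TPM with atorvastatin, against 4.95 and 10.1 TPM in the controls. The rise was 2.80-fold with vehicle (95% confidence interval 1.87 to 4.2) and 3.35-fold with atorvastatin (2.37 to 4.75), at an adjusted p of 0.00215 and 0.000249 in edgeR. Both controls had counts of Plcg2 (209 and 381).

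Inpp5d, the phosphatase that works with Fcgr2b, had uneven controls, both with counts. SCI + Vehicle mice ranged from 21.3 over 32.3 to 36.9 TPM and SCI + Atorvastatin mice from 27.3 over 32.1 to 42.4 TPM, against 0.65 and 12.7 TPM (26 and 490 counts). It rose by 2.58 ± 0.745 on the log2 scale with vehicle and by 2.67 ± 0.756 with atorvastatin (adjusted p = 0.0248 and 0.018). Without control replicate 1 it was 1.67 and 1.76, and without control replicate 2 it was 5.75 and 5.83. The direction held with each control alone, while the size differed between them by more than its standard error.

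**Figure D2:**
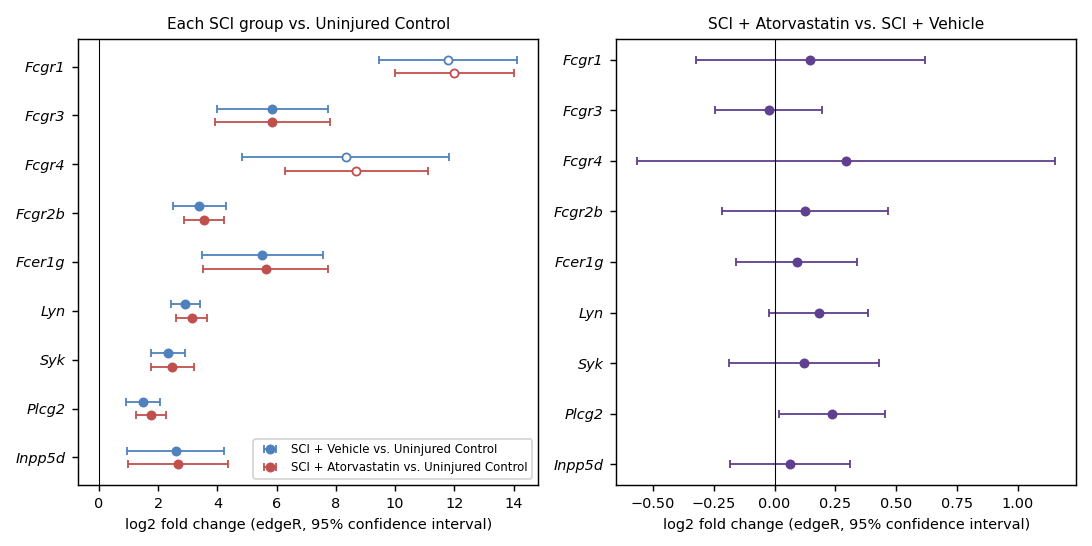
Log2 fold change of the 9 genes with its 95% confidence interval (x axis) for each SCI group against the Uninjured Control (left; open circles are genes with 0 counts in both controls, whose fitted value is no bound) and between treatments (right, on a smaller scale). Against controls each interval lies above 0; between treatments the interval of Plcg2 alone does not include 0, from 0.017 to 0.454.

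Among SCI mice the levels followed a stable order. Over the 14 mice the mean TPM was 276 for Fcer1g, 139 for Fcgr3, 60.4 for Fcgr2b, 38.6 for Lyn, 33.2 for Inpp5d, 22.3 for Plcg2, 21.4 for Fcgr1, 16.01 for Syk and 5.14 for Fcgr4. Most neighbours kept their order in at least 11 mice, and the exception was Plcg2, which was above Fcgr1 in only 8 of 14. The adaptor and the low-affinity receptor thus stood well above the kinases they signal through, in every SCI mouse.

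Fcgr3 made up most receptor mRNA after injury. Its share of the summed TPM of the 4 receptors was 63.2% ± 6.23 (SD, n = 7) with vehicle and 60.5% ± 3.06 with atorvastatin. Fcgr2b followed with 25.9% ± 6.14 and 27.1% ± 2.76, Fcgr1 with 8.89% ± 2.96 and 9.87% ± 1.68, and Fcgr4 with 1.96% ± 0.838 and 2.598% ± 0.689. The ratio of activating to inhibitory receptor TPM was 2.23 to 2.95 in 6 of the 7 SCI + Vehicle mice and 2.26 to 3.29 in the SCI + Atorvastatin mice. It was 6.76 in SCI + Vehicle replicate 7, the mouse with the lowest Fcgr2b (365 counts) and an Fcgr3 of 151 TPM. In the controls the scales differ. The only one with receptor TPM above 0 had a ratio of 2.45, on 6.83 TPM in all, whereas in CPM, where Fcgr2b had 51 and 70 counts, the ratio was 0 and 0.671. In CPM the ratio of SCI mice was 2.33 to 6.24 with vehicle and 2.095 to 3.25 with atorvastatin, above both controls in every mouse. It rests on the few receptor counts of 2 controls and was not tested.

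**Figure D3:**
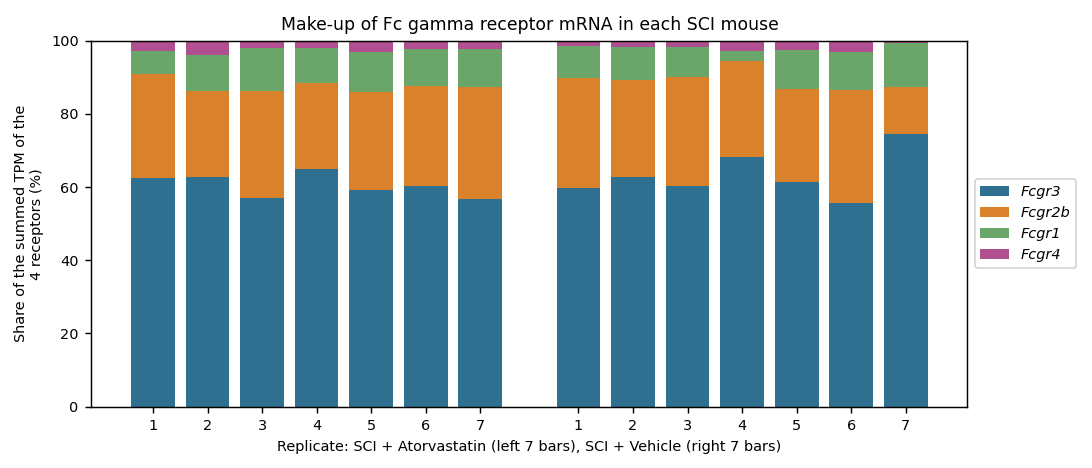
Share of the summed TPM of the 4 receptors held by each receptor (y axis, percent) in each SCI mouse (x axis, 7 bars per group). Fcgr3 holds 55.6% to 74.5% of receptor TPM in every mouse, and SCI + Vehicle replicate 7 has the smallest share of Fcgr2b, 12.9%.

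Microglia or macrophage genes moved with all of these genes. The summed level of 12 such genes was 254 and 373 TPM in the controls, 2484 to 3548 TPM with vehicle and 3120 to 4164 TPM with atorvastatin. Of the 12, 9 were called as upregulated with vehicle and 10 with atorvastatin. Cd68 and Ptprc were listed at 0 TPM in both controls, but Uninjured Control replicate 2 had 72 and 175 counts of them. Itgam was listed at 0 TPM in Uninjured Control replicate 1, which had 25 counts of it. Taken per 100 TPM of this list, the 9 genes did not keep pace evenly. Fcgr3 was 3.42 to 6.09 in SCI mice against 0 and 1.301 in controls, and Fcer1g was 6.49 to 9.69 against 4.21 and 0. Fcgr2b was 1.05 to 2.27 against 0 and 0.531. On this scale these receptor and adaptor ratios were higher in every SCI mouse than in either control. Plcg2 went the other way, with 0.524 to 0.816 in SCI mice against 1.95 and 2.71 in controls. Syk did too, with 0.345 to 0.664 against 0.818 and 0.899. Lyn (0.871 to 1.38 in SCI mice) and Inpp5d (0.817 to 1.23) lay between their controls, which were 1.60 and 0.0912 for Lyn and 0.256 and 3.40 for Inpp5d. TPM and counts differ in the controls for Fcgr2b and Lyn, and within the list for Cd68, Ptprc and Itgam. The ratios were therefore also taken in CPM over the summed CPM of the list, after seeing the data. There Fcgr3 (2.49 to 4.56 in SCI mice, 0 and 0.769 in controls) and Fcer1g (2.02 to 2.76, against 1.10 and 0) stayed above both controls. Fcgr2b did not, with 1.0 to 1.89 in SCI mice against 1.33 and 1.15, since SCI + Vehicle replicate 7 lay below both controls. Lyn overlapped its controls (2.38 to 3.15 against 3.03 and 2.90), while Syk (1.26 to 2.22 against 3.39 and 2.39) and Plcg2 (1.72 to 2.62 against 5.46 and 6.24) stayed below theirs. The ratios are a description on 2 controls, without a test.

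Markers of other cells that use these genes were compared in the same way. Mast cell genes summed to at most 7.61 TPM, B cell genes to at most 14.3 TPM and T or NK cell genes to at most 31.5 TPM in any mouse, and B cell genes had 0 counts in both controls. With vehicle and atorvastatin respectively, 1 and 1 of 1 tested mast cell gene, 0 and 2 of 3 B cell genes and 2 and 6 of 6 T or NK cell genes were called as upregulated. All of these tested genes had 0 counts in both controls and so had to be higher in SCI mice on counts. All but Cd247 were tested only through their level in SCI mice, and the counts are given as a description. The T or NK cell gene Cd247 was listed at 0 and 15.3 TPM in the controls despite its 0 counts. Its control mean of 7.65 TPM was above its mean of 1.24 TPM with vehicle and 3.31 TPM with atorvastatin. Neutrophil genes, 10 of which were measured, summed to 108 to 875 TPM with vehicle, 125 to 592 TPM with atorvastatin and 115 and 204 TPM in controls, and 3 and 4 of the 9 tested were called as upregulated, all of them with 0 counts in both controls. Platelet genes summed to 6.67 to 67.7 TPM over all mice with 0 of 5 called. Genes of liver sinusoidal endothelium, which is rich in Fcgr2b, summed to 28.2 and 1.23 TPM in the controls. In SCI mice they summed to at most 13.9 TPM, with 0 of 2 called. In the resident tissue, 6 of 7 neuron genes were called as lower in both SCI groups, 3 of 5 astrocyte genes as higher, and 1 and 3 of 5 oligodendrocyte genes as lower. The part of these cells in the results was not tested.

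The same IgG-handling and ITAM pathways were then described by lists. In these lists a gene with 0 counts in both controls was tested only through the SCI groups, so the number of such genes stands beside each count. Of 13 other Fc receptors and IgG-handling proteins, 7 were tested, and 4 were called as upregulated with vehicle and 5 with atorvastatin, 3 of them in each case with 0 counts in both controls. Fcrls, an Fc receptor-like gene of microglia, averaged 115 ± 20.9 TPM with vehicle and 136 ± 24.2 TPM with atorvastatin against 4.46 and 10.95 TPM (log2 fold change 2.84 and 3.08). Fcgrt, the neonatal Fc receptor, passed with atorvastatin only (0.94, adjusted p = 0.045, against 0.49 and 0.375 with vehicle), and the difference between treatments did not pass (adjusted p = 0.693). Trim21, the cytosolic antibody receptor, had log2 fold changes of 0.11 and 0.31 that did not pass. The 1 gene of the list that fell in both comparisons was Pigr, the epithelial carrier of IgA and IgM, from 64.3 and 24.6 TPM in the controls to a mean of at most 0.154 TPM, beside the hepatocyte genes that were high in those mice.

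Of the 19 genes for DAP12, DAP10 and other myeloid ITAM-linked receptors, 13 were tested, and 5 and 10 were called as upregulated with vehicle and atorvastatin. Of these calls, 3 and 8 were genes with 0 counts in both controls. Tyrobp, which encodes the adaptor DAP12, averaged 350.8 ± 72.1 TPM with vehicle and 419 ± 76.4 TPM with atorvastatin against 57.8 and 0 TPM, and Trem2, which pairs with it, averaged 193 ± 28.2 and 222 ± 46.7 TPM against 11.9 and 0 TPM. Clec7a, the beta-glucan receptor dectin-1, averaged 82.9 ± 16.9 and 90.9 ± 17.2 TPM and had 0 counts in both controls. All 3 were called in both comparisons. Uninjured Control replicate 2 had 33 counts of Tyrobp beside its 0 TPM.

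Among 26 kinases and adaptors next to Syk, 11 and 13 were called as upregulated with vehicle and atorvastatin, and 0 as lower, and 5 and 6 of the calls were genes with 0 counts in both controls. Prkcd, a protein kinase C, rose by 2.56 and 2.66 on the log2 scale, while Fyn (0.02 and -0.11) and Pik3r1 (0.30 and 0.39) did not pass. Of 27 tested ITIM receptors, phosphatases and other inhibitors, 14 and 18 were called as upregulated, 9 and 10 of them with 0 counts in both controls. Ptpn6, the phosphatase SHP-1, rose by 3.65 and 3.94 with controls of 179 and 0 counts. Sirpa, the receptor for CD47, rose by 1.075 and 1.202. Ptpn11, the broadly expressed SHP-2, had log2 fold changes of -0.20 and -0.27 and was not called. Of 15 immunoglobulin and plasma cell genes, 5 were measured and 2, Jchain and Sdc1, were tested, and neither passed (log2 fold change 0.82 and -0.56 with vehicle). The immunoglobulin heavy and light chain genes of the list were not found under the symbols looked for, so they were not analysed here.

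Atorvastatin was compared with vehicle in the 7 against 7 injured mice. Of the 9 genes, 0 were called, where 0.106% of all genes tested were (17 of 16091). No gene of the whole table had an adjusted p below 0.05 (smallest 0.68 in edgeR). At an unadjusted p below 0.05 there was 1 of the 9 genes, where 7.03% of all genes passed. That gene was Plcg2, at 30.7 over 39.4 to 47.6 CPM with vehicle and 39.0 over 45.8 to 52.4 CPM with atorvastatin. It was 1.18-fold higher with atorvastatin (95% confidence interval 1.01 to 1.37, adjusted p = 0.693), and 6 of 7 atorvastatin mice lay above the vehicle median. Lyn was 1.13-fold higher (0.984 to 1.31, adjusted p = 0.742), also with 6 of 7 above the vehicle median.

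The other 7 genes had intervals that include 1. Fcgr3 was 0.983-fold (0.845 to 1.14), Inpp5d 1.05-fold (0.882 to 1.24) and Fcer1g 1.07-fold (0.896 to 1.27). Syk was 1.09-fold (0.879 to 1.35), Fcgr2b 1.09-fold (0.862 to 1.38) and Fcgr1 1.11-fold (0.798 to 1.53). The widest was that of Fcgr4, with the fewest counts, at 1.23-fold (0.676 to 2.23). For Fcgr3, Inpp5d, Fcer1g and Lyn a rise beyond 1.31-fold thus lies outside the intervals, whereas for Fcgr4 a rise of up to 2.23-fold lies inside. All 12 microglia or macrophage genes had positive differences, as did 8 of the 9 genes, Fcgr3 being the exception. The median log2 fold change of the 12 was 0.14 with 0 called, against 0.13 for the 9 genes, and their part was not tested. In the 5 pathway lists 0 genes were called between treatments.

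Between mice of 1 group most pairs of the 9 genes varied in the same direction. With group means removed, 32 of 36 pairs had a positive Pearson r over the 14 SCI mice, with a median of 0.42 and a range of -0.24 to 0.81. The median was 0.59 among SCI + Atorvastatin mice and 0.27 among SCI + Vehicle mice. Over all pairs of genes tested, 49.9% had a positive r and the median was -0.001. None passed correction over the 36 pairs (100000 permutations of mice within groups, two-sided, smallest adjusted p = 0.0701). The highest pair was Fcgr2b with Inpp5d, the inhibitory receptor and its phosphatase, at r = 0.81 and rho = 0.71 (permutation p = 0.00358 and 0.00678, adjusted p = 0.0701 and 0.101), and r was 0.57 without the 2 mice farthest from the median of Fcgr2b. Among SCI + Atorvastatin mice r was 0.62, and among SCI + Vehicle mice, where replicate 7 was lowest in both genes, it was 0.93. Fcer1g with Lyn followed at r = 0.76 and rho = 0.68 (permutation p = 0.00608 and 0.0156, adjusted p = 0.0701 and 0.101), and r was 0.59 without the 2 farthest mice. Its value was 0.91 among atorvastatin mice and 0.35 among vehicle mice. Without the 2 farthest mice for each pair, 24 of 36 were positive and the median r was 0.26, so part of this rests on those mice. The microglia or macrophage genes varied in the same direction. Their median r to the mean of the 9 standardised genes (each scaled to the same spread) was 0.755. The 9 genes, which are part of that mean, had r of 0.452 (Fcgr4) to 0.915 (Fcer1g) to it.

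Individual mice stood out in opposite ways. SCI + Atorvastatin replicate 3 was the highest of its group for 6 of the 9 genes (Fcgr1, Fcgr3, Fcgr2b, Fcer1g, Lyn and Syk) and also had the highest microglia or macrophage sum, 4164 TPM. SCI + Atorvastatin replicate 4 was the lowest of its group for 5 (Fcgr4, Fcer1g, Lyn, Syk and Inpp5d). SCI + Vehicle replicate 7 was the highest of its group for Fcgr1 and Fcgr3 and the lowest for Fcgr4, Fcgr2b, Lyn, Plcg2 and Inpp5d, with the lowest microglia or macrophage sum of the SCI mice, 2484 TPM. The 5 other genes whose level followed the mean of the 9 standardised genes most closely over the 14 mice were Hexa (r = 0.94), Bcl2a1d (0.90), Olfml3 (0.90), Ftl1 (0.88) and Wtap (0.88). They are given as a description, since all points share libraries and depth, and the median r of all genes tested was -0.003.

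**Figure D4:**
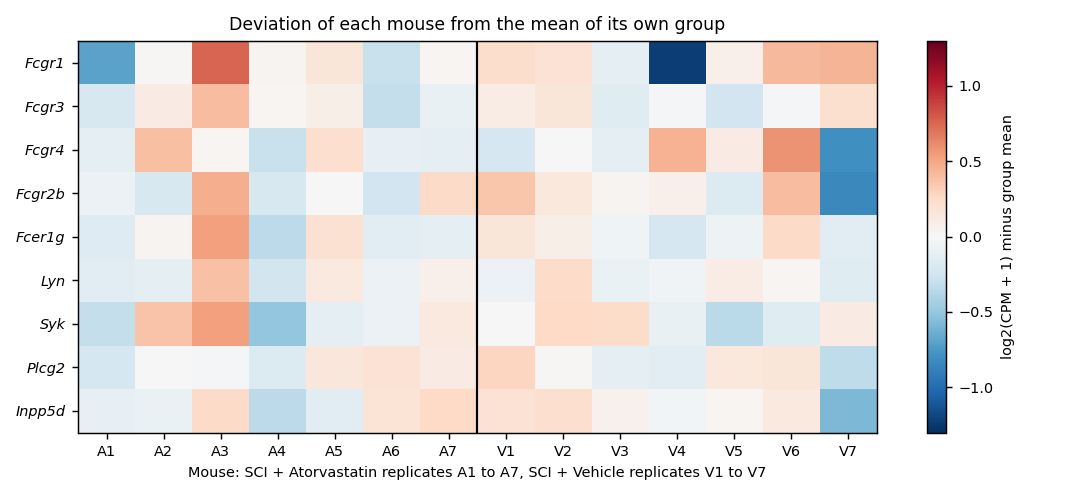
Deviation of each SCI mouse from the mean of its own group in log2(CPM + 1) (colour) for the 9 genes (rows). Red runs down most of the column of SCI + Atorvastatin replicate 3 (0.75 for Fcgr1), and SCI + Vehicle replicate 7 shows 0.45 for Fcgr1 beside -0.83 for Fcgr2b.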

How the data were processed

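The submitters' processing notes name FastQC 0.12.1, Trimmomatic 0.38, STAR 2.5.4b, RSEM 1.3.1 and the mm10 build. The authors deposited raw counts per gene and, separately, TPM, normalized for gene length and to a fixed sum per sample. The step behind the whole-number counts and whether counting used strand are not given in the sources used here. All columns were used (0 left out), and groups came from the sample labels.

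The study itself used DESeq2. Here the quasi-likelihood test of edgeR 4.0.16 (R 4.3.3, TMM factors) was applied to counts of the 2 groups of each comparison without a covariate. DESeq2 1.42.0 and limma 3.58.1 were alternatives, and the scripts were tested on simulated data. CPM are TMM-scaled. Intervals for counts of 0 cover counting error only, since reads carry no molecular identifiers. The members, the 5 pathway lists and the marker lists (microglia or macrophage, neutrophil, mast, B, T or NK, platelet, liver sinusoidal endothelium, Kupffer, hepatocyte, neuron, oligodendrocyte, astrocyte) were chosen with earlier results of these data known. Named genes were the 9 members, the 3 genes of each pathway list with the highest mean TPM over 16 mice, the 5 genes most like the members' mean, and marker genes bearing on a member. Pigr was named after its values were seen. Of the 3 immunoglobulin or plasma cell genes so chosen, Derl3 was not tested. Positions are from GENCODE and promoters from RefSeq, both GRCm38; Lyn had no promoter entry. Sharing between genes was counted over 75-base stretches of GENCODE transcripts.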

Additional observations from a re-analysis of the deposited data

Results flagged for a closer look

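In 18 groups of 7 mice (9 genes in 2 groups), 2 had a mouse whose gap to the next exceeded Dixon's 95% limit, where chance gives about 1 in 20. Fcgr1 in SCI + Vehicle replicate 4 was the lowest of its group at 7.62 CPM (112 counts), with the next mouse at 17.5 CPM. This library was the smallest of the series, with 14823292 counts on genes. Inpp5d in SCI + Vehicle replicate 7 was the lowest of its group at 46.6 CPM (1058 counts), with the next mouse at 68.3 CPM, and the same mouse was lowest in Fcgr2b.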

How the results depend on the processing

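The 9 genes kept their direction and call against Uninjured Control with DESeq2, DESeq2's size factors, library totals, limma on log2(TPM + 1), no filter, all groups in 1 fit, and voom without weights (chosen after seeing the data), and also in both comparisons when any 1 mouse was left out (9 called at lowest and highest). The exceptions in both comparisons were voom with group quality weights (0 called), a minimum of 10 counts in every mouse (5 called of 5 tested), and a mean TPM above 1 in every condition (6 of 6 tested). With the replicate number as a block 0 were called in both, and 16 and 0 genes in all. Same-numbered mice of the SCI groups did not deviate together (correlations of -0.192 to 0.111), so the number is not a pairing. Over all genes, calls with vehicle were 132 with voom, 2398 and 2862 under the stricter filters and 7673 and 7806 without 1 control, against 4726. With atorvastatin they were 145, 3710, 4040, 9706 and 9826, against 6259. Between treatments 0 of the 9 genes were called under every alternative (0 at lowest and highest without 1 mouse). There, over all genes, 37 were called with DESeq2, 8 with voom, 10 with at least 10 counts, 8 with the block, 1 with all groups in 1 fit and 5 to 32 without 1 mouse, against 17. Leaving out 1 mouse turned the sign of small log2 differences between treatments, which ranged from -0.10 to 0.024 for Fcgr3, -0.017 to 0.245 for Fcgr1, -0.015 to 0.145 for Fcer1g and -0.019 to 0.116 for Inpp5d. SCI + Atorvastatin replicate 3 turned Fcgr1 and Fcer1g, and SCI + Vehicle replicate 7 turned Inpp5d. Fcgr3 was turned by SCI + Atorvastatin replicates 1 and 6 and by SCI + Vehicle replicates 2 and 7. For pairs, log2(TPM + 1) gave 1 of 36 past correction (Fcgr2b with Fcer1g, r = 0.67, adjusted p = 0.0238 by permutation), and leaving out the 2 farthest mice gave 0. The cause of these changes was not tested. With 2 controls, 1 of them at 0 for Fcgr3 and the other for Fcer1g, the fold sizes of these genes are imprecise.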
